A study of Mus musculus with 34 samples.

Results

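The apolipoprotein genes *Apoa1*, *Apoc3*, *Apoa4*, *Apoa5*, *Apoa2*, *Apob*, *Apoe*, *Apoc1* and *Apoh*, together with *Mttp*, were examined for binding of the histone deacetylase HDAC3, the homeobox factor PROX1 and the nuclear receptor HNF4α in mouse liver. These 10 genes were chosen by name from 22225 protein-coding genes of the mm9 annotation. Each gene was given a window from 50 kb upstream of its annotated start to 2 kb past its end, and a peak belonged to the gene when its centre lay in the window. Of the 28631 distinct HDAC3 and PROX1 peaks, 53 were centred in these windows, which merged into 6 loci and covered 542 kb in all.

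Chromatin came from livers of male C57B/6 mice, 10 weeks old, collected at zeitgeber time 10, and was precipitated with an antibody to each factor and sequenced (ChIP-seq). For HDAC3 and PROX1 the labels list 3 libraries each from mice called Control, with no further genotype. The HNF4α list came from another group, 2 libraries from HNF4A_floxed mice, which by the study's methods are *Hnf4α* fl/fl animals given AAV8 TBG *Egfp*, a viral vector whose TBG promoter is active in hepatocytes. Replicates were pooled before peaks were called against an IgG library, so each list is one call, with no spread between livers and no read count per peak. HDAC3 and PROX1 peaks are 200 bp wide and carry no signal value, whereas each HNF4α peak carries a score given by the peak caller. The scale of the score is not stated in the list, in which it ran from 20.3 to 160.2 with a median of 41.9.

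Apolipoproteins are the protein parts of the particles that carry lipids in blood, and the liver is a major source of many of them. ApoB is the structural protein of very low density lipoprotein and is loaded with lipid by the microsomal triglyceride transfer protein, which *Mttp* encodes. ApoA1 and ApoA2 are the main proteins of high density lipoprotein, and ApoA4 is found on several particle types. ApoC3 inhibits and ApoA5 favours the lipolysis of triglycerides by lipoprotein lipase, ApoE directs the uptake of remnant particles by hepatocytes, and ApoC1 modulates that uptake. ApoH, also called β2-glycoprotein I, is a plasma protein that binds phospholipids. HNF4α is a nuclear receptor of hepatocytes that binds DNA as a homodimer, HDAC3 is the enzyme of the NCoR corepressor complexes, and PROX1 is a factor of liver and lymphatic endothelium.

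A peak with identical coordinates in the HDAC3 and PROX1 lists was called co-bound, and one found in a single list was called HDAC3-only or PROX1-only. A peak was counted as holding HNF4α when 1 HNF4α peak covered at least 50% of it. The following sequences are those of the co-bound peaks at a start of a protein-coding transcript, where binding and the transcribed gene meet. They were read from the NCBIM37 assembly, which is mm9, on the strand of the named gene, and bases that belong to annotated exons were left out. Capitals mark a match to the HNF4α consensus, a direct repeat of 13 positions, with at most 2 mismatches on either strand.
Apoc3 start, chr9:46043798-46043997, minus strand: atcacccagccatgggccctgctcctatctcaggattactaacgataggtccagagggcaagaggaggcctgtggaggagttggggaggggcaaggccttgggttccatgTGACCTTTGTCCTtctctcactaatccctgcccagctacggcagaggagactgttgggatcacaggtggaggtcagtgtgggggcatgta
Apoa5 start, chr9:46076538-46076690, plus strand: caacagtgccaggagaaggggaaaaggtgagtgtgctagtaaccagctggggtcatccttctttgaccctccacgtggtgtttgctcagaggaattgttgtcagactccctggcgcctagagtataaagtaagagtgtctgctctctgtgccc
Apoa2 start, chr1:173155057-173155184, plus strand: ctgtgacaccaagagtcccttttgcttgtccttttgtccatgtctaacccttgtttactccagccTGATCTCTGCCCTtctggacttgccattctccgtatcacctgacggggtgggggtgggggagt
Apob start, chr12:7984299-7984453, plus strand: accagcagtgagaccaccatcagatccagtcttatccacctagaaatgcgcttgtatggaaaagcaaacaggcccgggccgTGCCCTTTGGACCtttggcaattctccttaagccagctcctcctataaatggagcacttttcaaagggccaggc
Mttp start, chr3:137794342-137794449, minus strand: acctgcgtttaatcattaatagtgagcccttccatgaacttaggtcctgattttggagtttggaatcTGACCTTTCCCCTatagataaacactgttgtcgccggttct
Apoh start, chr11:108256380-108256579, plus strand: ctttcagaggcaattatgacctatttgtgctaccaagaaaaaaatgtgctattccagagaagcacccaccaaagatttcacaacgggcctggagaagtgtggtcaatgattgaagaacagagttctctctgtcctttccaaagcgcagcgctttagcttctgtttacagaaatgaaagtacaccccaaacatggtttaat

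The *Apoc3*, *Apoa2*, *Apob* and *Mttp* start peaks each hold a match to the consensus, and in each it reads on the strand opposite to the gene. The match was centred 44 bp from the centre of the HNF4α peak at *Apoc3*, 32 bp at *Apoa2*, 14 bp at *Apob* and 24 bp at *Mttp*. No match was found in the sequences printed for *Apoa5* and *Apoh*, which says only that these letters are not in them. The next sequences are the sites with the highest HNF4α scores of 4 loci. For *Apoe* the HNF4α peak itself is printed, since it lies between 2 co-bound peaks, and the site between *Apoa4* and *Apoa5* is printed on the strand of *Apoc3*.
Apoe upstream, chr7:20286354-20286503, minus strand: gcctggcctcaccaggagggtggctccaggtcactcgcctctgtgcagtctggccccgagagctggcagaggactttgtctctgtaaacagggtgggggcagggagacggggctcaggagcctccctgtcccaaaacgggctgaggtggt
Apob intron, chr12:7985364-7985563, plus strand: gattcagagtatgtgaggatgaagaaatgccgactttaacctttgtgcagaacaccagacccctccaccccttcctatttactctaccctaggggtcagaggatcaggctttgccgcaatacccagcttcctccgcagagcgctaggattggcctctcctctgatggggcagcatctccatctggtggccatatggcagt
Apoa4 to Apoa5 interval, chr9:46064920-46065119, minus strand: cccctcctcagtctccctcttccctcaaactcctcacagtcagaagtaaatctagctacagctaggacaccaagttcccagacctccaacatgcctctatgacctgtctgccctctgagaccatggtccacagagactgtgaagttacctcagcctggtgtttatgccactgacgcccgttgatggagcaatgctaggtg
Apoa2 upstream, Nr1i3 start, chr1:173144001-173144100, plus strand: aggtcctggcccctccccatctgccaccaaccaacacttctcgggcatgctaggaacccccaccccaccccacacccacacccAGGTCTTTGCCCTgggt

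The *Apoe*, *Apob* and *Apoa4* to *Apoa5* sites, with HNF4α scores of 128.6, 120.6 and 118.3, hold no match within 2 mismatches, and the fewest mismatches in each were 3. At the *Nr1i3* start, with a score of 112.6, the match was centred 12 bp from the centre of the HNF4α peak.

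Co-bound peaks made up most of the peaks at these genes, as they did in the lists as a whole. Of the 53 peaks, 47 were co-bound, 6 were PROX1-only and 0 were HDAC3-only. Of all 28631 peaks, 20039 were co-bound, 7384 were PROX1-only and 1208 were HDAC3-only. HNF4α covered 28 of the 47 co-bound peaks, or 59.6% (95% Wilson interval 45.3 to 72.4), which is near the 61.3% of all 20039 co-bound peaks. Intervals throughout reflect the number of peaks counted and no other error, and peaks near each other are not independent. PROX1-only peaks were 11.3% (5.29 to 22.6) of the PROX1 peaks in the windows and 26.9% (26.4 to 27.5) of those in the whole list. HNF4α covered 2 of the 6 PROX1-only peaks and 36.7% of the 7384 in the whole list.

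The window held 1 or more co-bound peaks with HNF4α at 9 of the 10 genes, a property of 31.2% of all protein-coding genes. *Apoc1* was the gene without one. A PROX1-only peak lay in the windows of 6 of the 10 genes and of 25.2% of all genes, and an HDAC3-only peak in those of 0 of the 10 and of 7.43% of all genes. Because 4 of the genes share one cluster and 2 share another, the 10 counts stand for 6 loci.

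The number of co-bound peaks per gene ran from 4 to 12 with a median of 6.5. Over all protein-coding genes the median was 0, the 90th percentile was 4, and 61.5% of the genes had none. *Apoa4* and *Apoa5* had 12 each, *Apoa1* 11, *Apoc3* 8, *Apoh* 7, *Apoa2* and *Apoe* 6, *Apob* 5, and *Apoc1* and *Mttp* 4. Thus *Apoc1* and *Mttp* were at the 90th percentile of all genes and the other genes above it. The place of *Apoh* rests on its annotated start. Its co-bound peaks upstream of that start lie more than 50 kb before its RefSeq start, outside a window drawn from there. Relative to the length of their windows, *Mttp* had 0.379 co-bound peaks per 10 kb, more than 87.3% of all genes, and the values of the other genes ran from 0.548 at *Apob* to 2.19 at *Apoa4*.

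**Figure D1:**
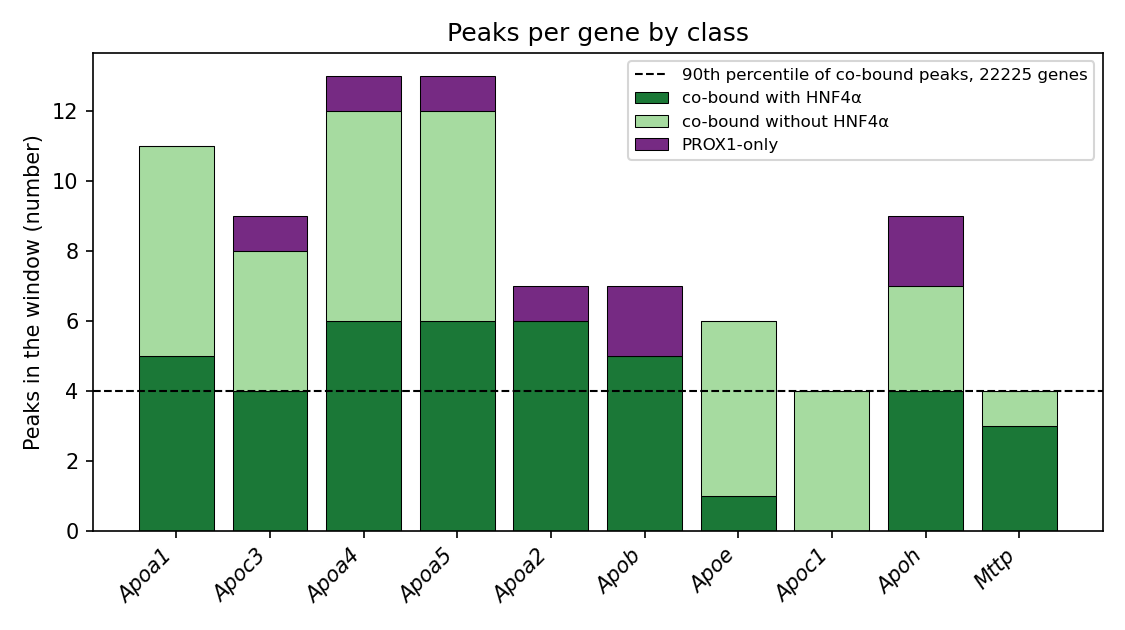
Number of peaks in the window of each gene (bars), split into co-bound peaks with HNF4α, co-bound peaks without HNF4α and PROX1-only peaks. The dashed line is the 90th percentile of co-bound peaks over 22225 protein-coding genes, which is 4. Bars of *Apoa1*, *Apoc3*, *Apoa4* and *Apoa5* share peaks, as do those of *Apoe* and *Apoc1*; *Apoa2* has no co-bound peak without HNF4α and *Apoc1* none with it.

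The loci differed in how many of their co-bound peaks held HNF4α. All 6 co-bound peaks at *Apoa2* and all 5 at *Apob* were covered by an HNF4α peak. At *Mttp* this held for 3 of 4 and at *Apoh*, with the window from its annotated start, for 4 of 7. In the *Apoa1*, *Apoc3*, *Apoa4* and *Apoa5* cluster it held for 9 of 19. At *Apoe* and *Apoc1* it held for 1 of 6. With at most 19 peaks per locus and no replicate lists, these proportions were not tested against each other.

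**Figure D2:**
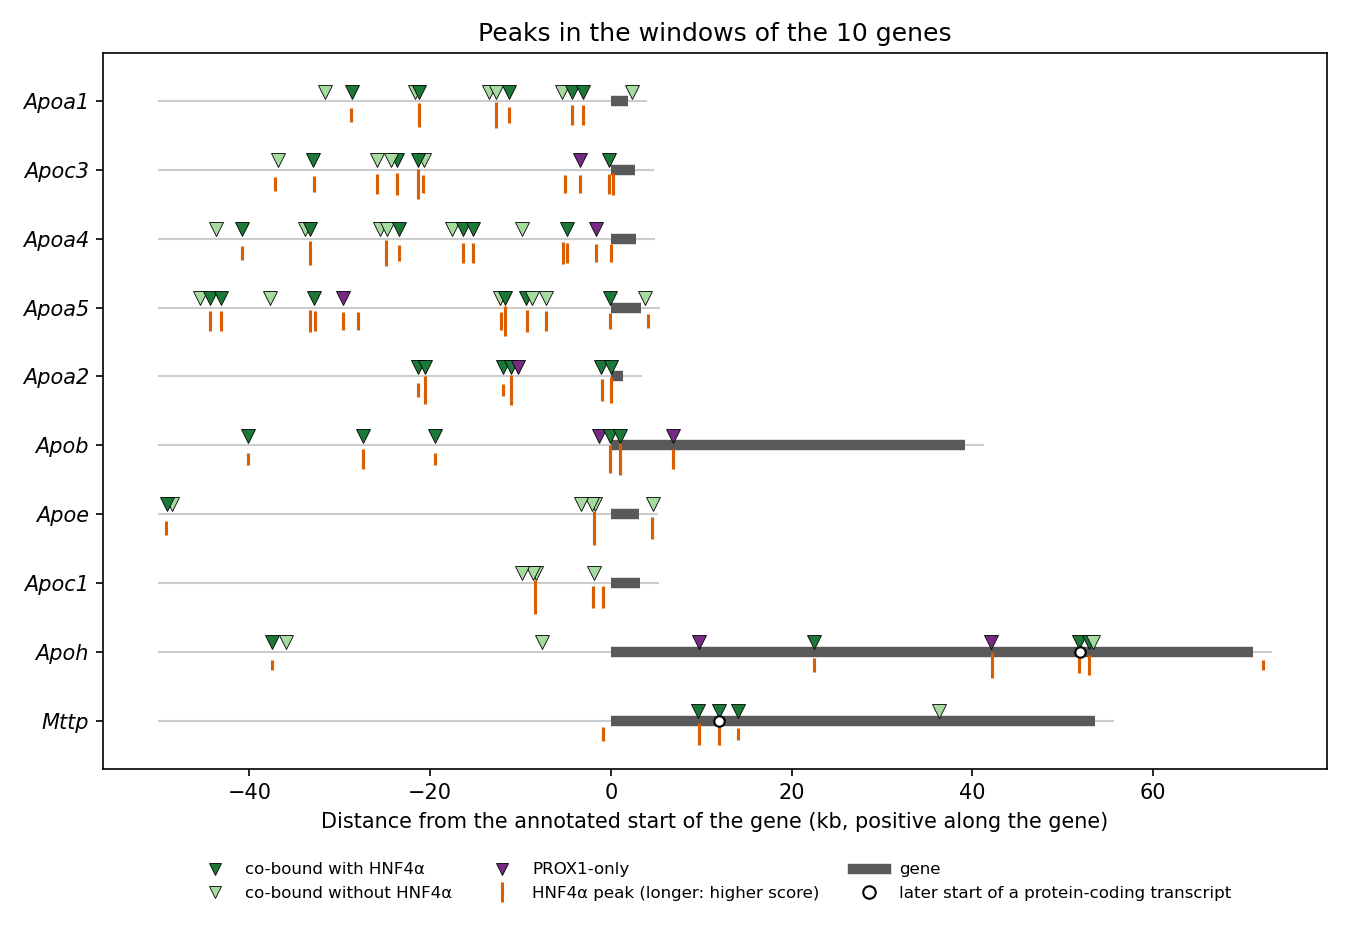
Position of every peak of the 3 lists relative to the annotated start of each gene, in kb along the gene. Triangles are HDAC3 and PROX1 peaks by class, orange ticks are HNF4α peaks with a length that grows with the score, thick bars are the genes, thin lines the windows, and open circles later transcript starts of *Apoh* and *Mttp*. Peaks cluster upstream of *Apoa1* and between *Apoa4* and *Apoa5*, and lie at the annotated start of *Apoc3*, *Apoa5*, *Apoa2* and *Apob*. In *Apoh* and *Mttp* they lie at the later start, where RefSeq also places the start of *Apoh*. The RefSeq start that could be placed for *Mttp* lies near the annotated one, and any RefSeq start without an exact match on mm9 was not seen.

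*Apoa1* lies on the plus strand of chromosome 9 from 46036663 to 46038549. Its window held 11 co-bound peaks, 5 of them with HNF4α, and 0 single peaks. No peak of any list was centred within 1 kb of its start. The nearest co-bound peaks were centred at -3116 bp, where HNF4α scored 65.5, and at 2297 bp, past the end of the gene, where no HNF4α peak touched it. Upstream of these lay a co-bound peak at -4273 bp with HNF4α (score 70.7) and one without it at -5.41 kb, in an exon of *Sik3*, a kinase gene. Farther away, 7 co-bound peaks between -11.3 and -31.6 kb lay in introns of *Sik3*, and 3 of them held HNF4α, with scores of 49.9 at -11.3 kb, 81.5 at -21.2 kb and 34.4 at -28.7 kb. The highest score in the window, 99.4, belonged to an HNF4α peak that covered 48.5% of the co-bound peak at -12.7 kb, so that this peak fell just outside the rule. The promoter sequence of *Apoa1*, taken from 250 bases before the annotated start to 50 after it, does hold a match to the consensus. It was centred 7 bp past the annotated start. The RefSeq start lies 50 bp past the annotated one, so that the match lies upstream of the RefSeq start.

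*Apoc3* lies on the minus strand of chromosome 9 from 46041016 to 46043719. A co-bound peak at chr9:46043798-46043997 was centred at -179 bp from its start, in intergenic sequence, and HNF4α covered 78% of it with a score of 62.2. A second HNF4α peak with a higher score, 77.7, at chr9:46043381-46043538, was centred in an exon of *Apoc3* at 259 bp. It touched no HDAC3 or PROX1 peak. Other protein-coding transcripts of *Apoc3* start at 46043552, 46043382 and 46043343, from which the co-bound peak was centred at -346, -516 and -555 bp. The second HNF4α peak was centred upstream of the starts at 46043382 and 46043343. No RefSeq start could be placed for *Apoc3*. In the promoter sequence the consensus match was centred at -162 bp from the annotated start.

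*Apoa4* lies on the plus strand of chromosome 9 from 46048779 to 46051542. Its 12 co-bound peaks, 6 with HNF4α, all lie also in the window of a neighbouring gene, and its window held 1 PROX1-only peak. That peak, centred at -1670 bp, was 80.5% covered by an HNF4α peak with a score of 56.5. At the annotated start, centred at -5 bp, lay an HNF4α peak with a score of 59.8 that touched no HDAC3 or PROX1 peak. The promoter sequence holds a consensus match at -32 bp. The RefSeq start lies 148 bp past the annotated one, and no co-bound peak lay within 1 kb of it. By the annotated starts, *Apoa4* thus had a called peak of HNF4α but none of HDAC3 or PROX1, whereas *Apoc3* had called peaks of all 3. For the later starts of *Apoc3*, the HNF4α peak without HDAC3 or PROX1 lay nearer than the co-bound peak. Lists without signal values cannot tell whether weaker binding was present.

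*Apoa5* lies on the plus strand of chromosome 9 from 46076716 to 46080002. A co-bound peak at chr9:46076538-46076737 was centred at -78 bp, and HNF4α covered 72% of it with a score of 48.1. Between *Apoa4* and *Apoa5* lay 5 more co-bound peaks, from -7.14 to -12.3 kb of the *Apoa5* start, and 4 of them touched an HNF4α peak. Scores were 118.3 at -11.7 kb and 78.2 at -9.35 kb, where more than 50% of the peak was covered. At -12.3 kb the cover was 14.5% with a score of 60.3. At -7.14 kb it was 48.5% with a score of 62.2, and this HNF4α peak is 97 bp wide, so that it could not cover 50% of any 200 bp peak. The co-bound peak at -8.70 kb touched none. Past the gene, a co-bound peak without HNF4α at 3.83 kb was centred at -603 bp from the start of *Zfp259*, which encodes a zinc finger protein.

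*Apoa2* lies on the plus strand of chromosome 1 from 173155185 to 173156510. A co-bound peak centred at -28 bp was 74% covered by an HNF4α peak with a score of 97.1, above 95.5% of the HNF4α list. A neighbouring one at -1.04 kb had a score of 74.0. The start of *Nr1i3*, which encodes the xenobiotic receptor CAR, lies in the same window, and the co-bound peak centred on it (0 bp) had the highest score of the locus, 112.6. A further co-bound peak, at -833 bp from the *Nr1i3* start, had a score of 27.8, and a PROX1-only peak without HNF4α lay 765 bp into *Nr1i3*. The remaining pair, at -20.6 and -21.4 kb from *Apoa2*, had scores of 107.9 and 40.1. Both lay beyond *Nr1i3* and nearer to the start of another gene than to that of *Apoa2*. Which gene a peak of this window belongs to cannot be told from its position.

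*Apob* lies on the plus strand of chromosome 12 from 7984454 to 8023641. All 5 of its co-bound peaks held HNF4α. The peak at the start, centred at -55 bp, had a score of 101.3 and the next, centred at 1010 bp in an intron, a score of 120.6, above 99.3% of the list. Upstream, the scores were 27.3 at -19.5 kb, 64.1 at -27.4 kb and 24.5 at -40.2 kb. A PROX1-only peak at -1.34 kb touched no HNF4α peak, and another, at 6.91 kb in an intron, was 80% covered with a score of 62.2. Scores of the co-bound peaks at -55 and 1010 bp were therefore higher than those of the 3 distal co-bound peaks.

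*Mttp* lies on the minus strand of chromosome 3 from 137752819 to 137806352. No co-bound peak lay within 1 kb of this annotated start. A shorter protein-coding transcript starts at 137794341, and a co-bound peak was centred at -9 bp from that start, 82.5% covered by an HNF4α peak with a score of 74.4. The RefSeq start that could be placed for *Mttp* is 137806382, -30 bp from the annotated start, and no co-bound peak lay within 1 kb of it. Since only starts with an exact match on mm9 were placed, this does not show whether RefSeq also has the later start. To either side of the peak at the later start lay co-bound peaks with scores of 73.0 and 26.9, 9.67 and 14 kb into the gene as annotated. At 36.3 kb a co-bound peak touched no HNF4α peak. An HNF4α peak with a score of 33.9, at -898 bp from the annotated start, lay in an intron of *Rg9mtd2* and touched no HDAC3 or PROX1 peak.

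*Apoe* lies on the minus strand of chromosome 7 from 20281458 to 20284515 and *Apoc1* on the same strand from 20274833 to 20278007. Their windows held 6 co-bound peaks, 4 of which touched an HNF4α peak, but 1 of them was covered by at least 50%. The highest score of all 42 HNF4α peaks described here, 128.6, above 99.7% of the list, belonged to the peak at chr7:20286354-20286503. It covered 34% of a co-bound peak centred at -1.81 kb from *Apoe* and 12% of another at -2.06 kb, so that it sat between them. The peak that met the rule lay at -49.2 kb, in an intron of *Pvrl2*, which encodes a cell adhesion protein, and had a score of 33.0. Another co-bound peak of that intron, at -48.6 kb, touched no HNF4α peak. The one at -3.36 kb, in an intron of *Tomm40*, a mitochondrial import gene, touched none either. It lay within 1 kb of a transcript start of *Tomm40*, but not of the annotated start of that gene.

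Upstream of *Apoc1*, a co-bound peak at -1.87 kb was 46.5% covered by an HNF4α peak with a score of 72.1. Nearer to the start, at -839 bp, lay an HNF4α peak with a score of 76.8 that touched no HDAC3 or PROX1 peak. Neither *Apoe* nor *Apoc1* had a co-bound peak within 1 kb of its start.

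*Apoh* lies on the plus strand of chromosome 11 from 108204668 to 108275710, where the annotation begins with a partial transcript. The protein-coding transcript that matches RefSeq starts at 108256607, and the RefSeq start lies at 108256611, 51943 bp past the annotated start. Around this start, a co-bound peak was centred at -127 bp (score 50.9) and another at 935 bp (score 67.8). The second was 55% covered, the smallest cover that met the rule, whereas the nearest peaks that missed it were covered by 48.5%, 48.5% and 46.5%. The distances that follow are counted from the annotated start, 108204668, and not from the later one. A PROX1-only peak at 42.1 kb, before the later start, was 42% covered by the HNF4α peak with the highest score of the locus, 93.3. Of the other co-bound peaks, those at 22.4 and -37.5 kb held HNF4α with scores of 32.5 and 21.2, and those at 53.3, -7.62 and -36 kb touched no HNF4α peak. The peaks upstream of the annotated start lay in introns of *Prkca*, the gene of protein kinase C alpha.

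At the annotated starts, 4 of the 10 genes (*Apoc3*, *Apoa5*, *Apoa2* and *Apob*) had a co-bound peak within 1 kb, a property of 5.07% of all protein-coding genes. Each of these peaks held HNF4α. When the start of any protein-coding transcript was used, *Apoh* and *Mttp* joined them and the number was 6, against 6.34% of all genes by the same measure. *Apoa1*, *Apoa4*, *Apoe* and *Apoc1* had none by either measure.

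**Figure D3:**
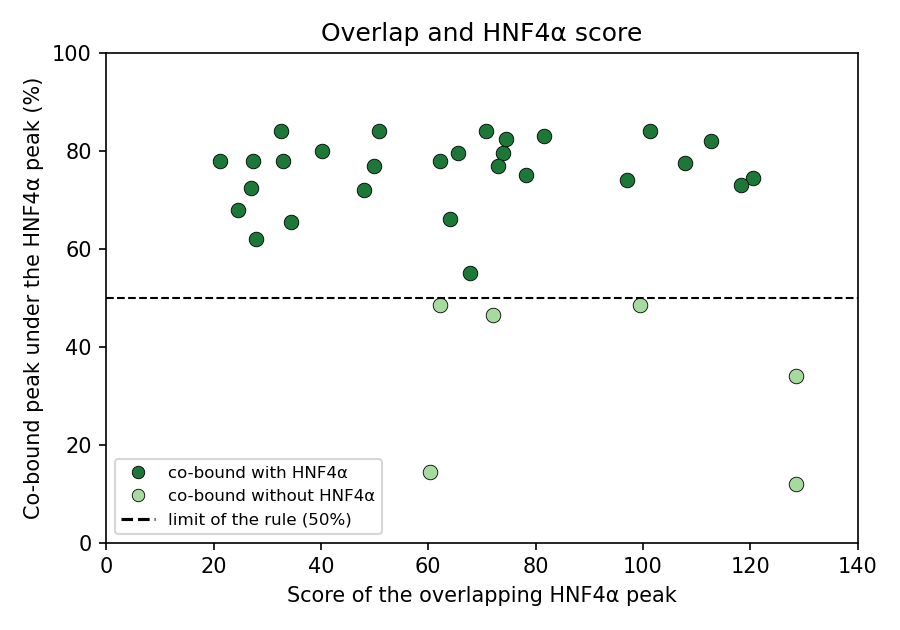
Share of each co-bound peak that lies under an HNF4α peak (vertical axis, %) against the score of that HNF4α peak (horizontal axis), for the 34 co-bound peaks that touch one. Dark points meet the 50% limit (dashed line); of the 6 light points below it, the 2 farthest to the right are the pair beside *Apoe* at a score of 128.6.

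Counting any contact of at least 1 bp, HNF4α touched 34 of the 47 co-bound peaks, or 72.3%, against 67.2% of all co-bound peaks. Thus 6 co-bound peaks of these genes touched an HNF4α peak and failed the 50% rule, and their HNF4α scores were 60.3 or higher, above the list median of 41.9. The plot of cover against score shows them below the limit at scores up to 128.6.

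HNF4α peaks in the windows had higher scores than the list as a whole. The 42 peaks had a median score of 63.1, against 41.9 over all 24253, and 9 of them (21.4%) were in the top 10% of the list by score, to which ties leave 9.97% of all. At co-bound peaks with HNF4α the median was 64.8 at these genes and 52.3 over all such peaks. Of the 42, 6 (14.3%) touched no HDAC3 or PROX1 peak, against 31.4% of the whole list, and their median score was 50.6. These medians are descriptions of one pooled list and were not tested.

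**Figure D4:**
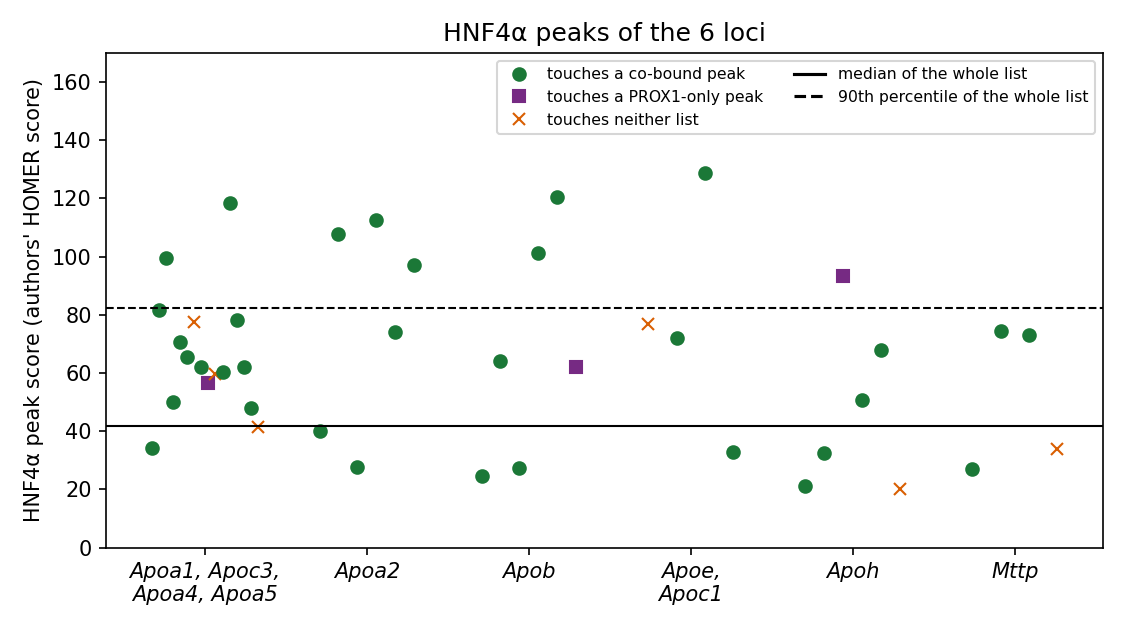
Score of each HNF4α peak (points) in the 6 loci, in order of position within a locus. The solid line is the median of the whole list (41.9) and the dashed line its 90th percentile (82.5). Each locus except *Mttp* has at least 1 peak above the dashed line, and the highest, 128.6, is upstream of *Apoe*.

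Co-bound peaks at these genes also lay close together. Another co-bound peak was centred within 1 kb of 18 of the 47, or 38.3% (25.8 to 52.6), against 18.8% (18.2 to 19.3) of all co-bound peaks. The share was 41.9% (30.5 to 54.3) at 13 genes of plasma proteins that the liver makes, above that of the 10 genes and with an overlapping interval.

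The same counts were made for 3 further lists of genes. Per 100 kb of window there were 8.67 co-bound peaks at the 10 genes, 5.85 at 27 other genes of lipoprotein metabolism, 7.46 at the plasma protein genes and 3.54 at 14 genes of cholesterol synthesis. Over the windows of all protein-coding genes the density was 1.1. The density of the 10 genes leans on the *Apoa1*, *Apoc3*, *Apoa4* and *Apoa5* cluster, which held 19 of their 47 co-bound peaks in 107 of 542 kb. A density without this cluster was not computed. The share of co-bound peaks with HNF4α was 56.6% (47.7 to 65) at the other lipoprotein genes, 66.1% (53.7 to 76.7) at the plasma protein genes and 38.9% (24.8 to 55.1) at the cholesterol synthesis genes. Each of these intervals overlaps that of the 10 genes. PROX1-only peaks were 14.1% (9.31 to 20.8) of the PROX1 peaks at the other lipoprotein genes and 15.1% (8.63 to 25) at the plasma protein genes, near the 11.3% of the 10 genes. At the cholesterol synthesis genes they were 28% (17.5 to 41.7). HDAC3-only peaks numbered 10, 0 and 2 in these lists. Of the co-bound peaks, 4 lay both in the windows of the 10 genes (8.51% of theirs) and in those of the other lipoprotein genes (3.28%), which include the neighbours *Apoc2* and *Apoc4* of *Apoc1*. The HNF4α scores of the plasma protein genes lay near those of the 10 genes, with a median of 59.3, 28.6% of the peaks in the top 10% of the list, 12.5% touching no HDAC3 or PROX1 peak and a median of 66 at co-bound peaks with HNF4α. Median scores were 51.4 at the other lipoprotein genes and 43.6 at the cholesterol synthesis genes. A co-bound peak lay within 1 kb of the annotated start in 9 of 27, 9 of 13 and 0 of 14 genes.

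**Figure D5:**
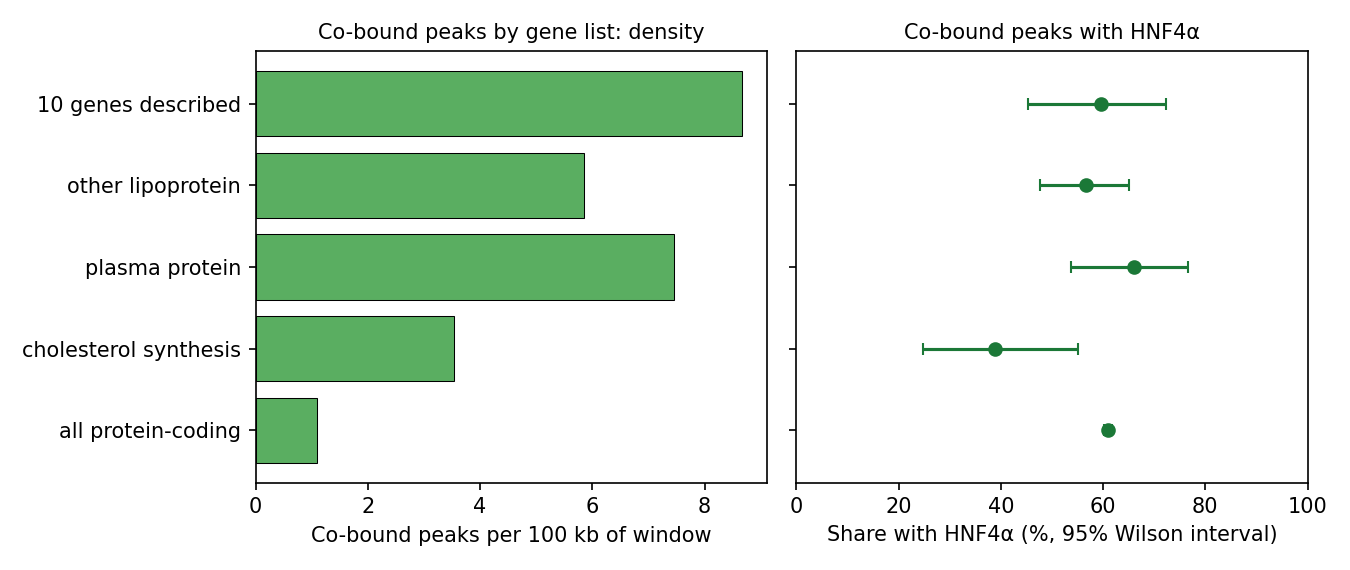
Co-bound peaks per 100 kb of window (left, bars) and share of co-bound peaks with HNF4α in percent with 95% Wilson intervals (right, points) for the 10 genes, 3 comparison lists and all protein-coding genes. The density of the 10 genes, 8.67, is the highest bar and lies nearest to the 7.46 of the plasma protein genes. It leans on the *Apoa1*, *Apoc3*, *Apoa4* and *Apoa5* cluster, which holds 19 of their 47 co-bound peaks. The interval of the share with HNF4α at the 10 genes overlaps that of every other list.

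Co-bound peaks with HNF4α were found at 20 of the 27 other lipoprotein genes. *Scarb1*, which encodes a receptor for high density lipoprotein, had 12 and *Abca1*, a cholesterol exporter, had 9, whereas the apolipoprotein genes *Apod* and *Apom* had 0. All 13 plasma protein genes had at least 1, with 7 each at *Alb*, the albumin gene, and *Gc*, the gene of the vitamin D binding protein, and 1 each at *Ambp* and *Serpina1a*. Of the cholesterol synthesis genes 6 of 14 had at least 1, with 3 at *Insig1*, which encodes a regulator of sterol synthesis, and 0 at *Cyp51* and *Fdps*.

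As a check of the tissue, all 5 hepatocyte marker genes had co-bound peaks with HNF4α, between 3 and 7 each. None of the 3 Kupffer cell, 3 stellate cell and 3 cholangiocyte markers had one, but 2 of the 3 sinusoidal endothelium markers did, *Stab2* and *Lyve1* with 3 each. Whole liver was used for the chromatin, so the cell types that contribute to a peak cannot be told apart.

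For motif content, the 200 bp around the centre of each co-bound peak were searched on both strands. The HNF4α consensus was matched in 11 of the 47 at these genes, or 23.4% (13.6 to 37.2), and in 31.2% of all co-bound peaks. Where HNF4α covered the peak, 9 of 28 (32.1%) held a match against 41.4% of all such peaks, and where it did not, 2 of 19 (10.5%) against 15.1%. The letters CAAAGTCCA, a strict core of the same motif, were found in 0 of 47 (upper limit 7.56%) and in 2.84% of all.

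TTGCNNAA, the C/EBP motif, was found in 10 of 47 (21.3%, 12 to 34.9) against 26.1% of all co-bound peaks. TGTTTAC, the FOXA motif, was found in 7 of 47 (14.9%, 7.41 to 27.7) against 8.18%. These 7 include the start peaks of *Apoa2* and *Apoh* and the co-bound peak at -1.81 kb from *Apoe*. The Rev-erbα direct repeat, with at most 3 mismatches, was found in 2 of 47 (4.26%) against 1.66%. The intervals for the HNF4α consensus and C/EBP hold the share of all co-bound peaks, as does that for FOXA.

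From 250 bases before to 50 after the annotated start, 5 of the 10 genes (*Apoa1*, *Apoc3*, *Apoa4*, *Apoa2* and *Apob*) held an HNF4α consensus match, against 10.5% of all protein-coding genes. Of these 5, *Apoc3*, *Apoa2* and *Apob* had a co-bound peak with HNF4α at the start, *Apoa4* had an HNF4α peak alone and *Apoa1* had no peak of any list within 1 kb.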

How the data were processed

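The authors aligned the ChIP-seq reads to mm9 with Bowtie 0.12.7, discarded duplicate reads, merged replicates into one pool per factor and ran the HOMER peak caller against IgG. They kept peaks above 2 rpm (PROX1 and HNF4α) or 1.5 rpm (HDAC3) and asked co-bound peaks for at least 1 rpm of the other factor. The study also describes the HNF4α peaks as filtered on the knockout, which was not checked here. The deposited HDAC3 and PROX1 lists give positions only, in which co-bound peaks are identical in both lists, so co-binding is the authors' classification. Blank lines divide the co-bound peaks into 3 blocks of unstated meaning, which held 40, 3 and 4 of the 47 peaks at these genes. The deposited HNF4α list adds the HOMER score of each peak, whose scale is not stated. Depth per library is unknown, and no spread between livers can be given.

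Samples were grouped by their titles. Peaks were assigned to GENCODE M1 protein-coding genes of NCBIM37 by their centres. RefSeq starts of GRCm38 were placed on mm9 by an exact match of the bases from 250 before to 50 after the start, and *Apoc1* and *Apoc3* had no such match. *Hmgcs1*, of the cholesterol synthesis list, was not analysed here. No test was run, since each list is one pooled call. The genes and lists were chosen with earlier results of these data known. The text names the 10 genes, genes whose promoter lies under a peak in their windows, and in each list the 2 genes with the most and the 2 with the fewest co-bound peaks with HNF4α, ties in alphabetical order, and 1 gene that this rule names is not reported here. *Sik3*, *Prkca*, *Pvrl2*, *Rg9mtd2*, *Apoc2* and *Apoc4* were named after their values were seen, since a peak lies in an exon or intron of each or, for *Apoc2* and *Apoc4*, since their windows share peaks with *Apoe* and *Apoc1*. Motifs other than the exact ones were read from logos of the study. Alternatives changed the overlap, the HNF4α list, the window, the counting, the blocks, the promoter and the motif rule. The code was tested on simulated peaks and planted motifs. Python 3.11.15, numpy 2.4.6, scipy 1.17.1, pysam 0.24.0, samtools 1.23.1 and matplotlib 3.10.9 were used. RNA-seq, H3K27Ac and *Hnf4α* knockout samples were not analysed here.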

Additional observations from a re-analysis of the deposited data

How the results depend on the processing

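The limits are the pooled lists, the unknown depth and the choice of 50% cover. Asking for 75% cover left 18 co-bound peaks with HNF4α, or 38.3%, where the share of all co-bound peaks was 32.5%. With HNF4α peaks scored above the list median only, the share was 40.4% (40% of all). *Apoe* then joined *Apoc1* as a gene without a co-bound peak with HNF4α, as it did with a 10 kb window and with the first block of the lists only. With the first block only the share was 57.5%, against 66.4% of all co-bound peaks of that block. A window of 10 kb upstream held 27 co-bound peaks, 15 of them with HNF4α. A window of 100 kb upstream held 43 co-bound peaks with HNF4α and 10 PROX1-only peaks, 4 of them with HNF4α, and every gene then had a co-bound peak with HNF4α, as with any overlap of at least 1 bp. Counting a shared peak once per gene gave 75 co-bound peaks and 4 PROX1-only peaks with HNF4α. With at most 1 mismatch the HNF4α consensus was matched in 4.26% of the co-bound peaks (7.15% of all). Of the 47 alternative values, 36, among them the share with the first block only, stayed within 1.5 times the count or within the interval of the share. The RefSeq starts, an alternative chosen after seeing the data, gave 44 co-bound peaks, 27 of them with HNF4α. Leaving out replicates was not possible because the lists are pooled. No paired analysis was possible because no result comes from a test.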
